A study of Mus musculus with 32 samples.

Results

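The genes described here are the glucocorticoid receptor gene *Nr3c1*, the enzyme gene *Hsd11b1* and 6 genes that the receptor is known to induce (*Tsc22d3*, *Fkbp5*, *Klf9*, *Zbtb16*, *Per1* and *Sgk1*). These 8 genes were taken by symbol from the 31053 genes of the count matrices by a rule that names no measured value, with earlier results of these data known. Their identifiers and positions in GRCm38 (GENCODE M21) are ENSMUSG00000024431 for *Nr3c1* (chr18:39410545-39519421, minus strand), ENSMUSG00000016194 for *Hsd11b1* (chr1:193221634-193264075, minus), ENSMUSG00000031431 for *Tsc22d3* (chrX:140539528-140600659, minus), ENSMUSG00000024222 for *Fkbp5* (chr17:28399094-28517527, minus), ENSMUSG00000033863 for *Klf9* (chr19:23141226-23168134, plus), ENSMUSG00000066687 for *Zbtb16* (chr9:48654297-48836222, minus), ENSMUSG00000020893 for *Per1* (chr11:69095217-69109960, plus) and ENSMUSG00000019970 for *Sgk1* (chr10:21882184-21999903, plus).

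The samples were BMSC-OBs, stromal cells of the bone marrow that had been grown in osteogenic medium, taken from 77 Diversity Outbred (DO) mice, an outbred stock bred from several inbred founder strains. Cells of 4 or 5 mice were combined in each of 16 pools for droplet single-cell RNA-seq, and every pool was sequenced in 2 runs of the same droplets, of which the run HGYVNCCX2 is described. No pool carried a transgene or a deletion, and there was no untreated group. All cultures received dexamethasone, a synthetic glucocorticoid, with ascorbic acid and β-glycerophosphate in the differentiation medium, so no comparison with cells lacking the hormone can be made. Mice were not told apart within a pool, and the pool is the replicate throughout.

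Glucocorticoids enter cells and bind the receptor, which is held by heat shock protein chaperones in the cytoplasm and then moves to the nucleus. There it binds short palindromic DNA elements and raises transcription of some genes, whereas many inflammatory genes are lowered. The enzyme encoded by *Hsd11b1* regenerates active hormone from its inactive keto form inside the cell, with cofactor from the enzyme encoded by *H6pd*, and the enzyme encoded by *Hsd11b2* does the reverse. In bone, glucocorticoids are part of standard osteogenic media, and they also favor the adipogenic fate of marrow stromal cells.

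The response element can be read in 1 of the member promoters. RefSeq promoters (GRCm38.p6) were used for 6 of the 8 genes, in 14 windows, and the 250 bases before each start were searched for the palindrome of AGAACA, any 3 bases and TGTTCT, which reads the same on both strands, and for either of its arms (AGAACA or TGTTCT, each the reverse complement of the other). *Sgk1* has several starts, and the window of 1 of them, chr10:21993640-21993889 on the plus strand, holds the whole palindrome, with its first base at position -189 from the start. A window of *Tsc22d3*, chrX:140600523-140600772 on the minus strand, holds a single arm at position -185. Both are shown 5′ to 3′ on the strand of the gene, with the palindrome and single arms in capitals. GENCODE transcripts of the gene held the end of the *Sgk1* entry but not that of the *Tsc22d3* entry, whose strand was therefore not checked.
*Sgk1*: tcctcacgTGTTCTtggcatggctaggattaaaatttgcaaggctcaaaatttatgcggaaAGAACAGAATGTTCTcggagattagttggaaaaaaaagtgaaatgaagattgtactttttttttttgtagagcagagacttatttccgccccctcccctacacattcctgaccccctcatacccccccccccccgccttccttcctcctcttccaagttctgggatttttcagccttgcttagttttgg
*Tsc22d3*: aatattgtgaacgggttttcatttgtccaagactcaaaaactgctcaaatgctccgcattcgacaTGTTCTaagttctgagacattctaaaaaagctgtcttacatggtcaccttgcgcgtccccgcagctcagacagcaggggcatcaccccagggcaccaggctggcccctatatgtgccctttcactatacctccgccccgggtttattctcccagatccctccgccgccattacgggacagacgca
Of 32851 windows of the same length in the table, 3 (0.00913%) hold the palindrome and 5284 (16.1%) hold an arm. Among the member windows, 4 of 14 hold an arm, 3 of them at *Sgk1*. No match says only that these letters are absent from the window.

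Pools had between 3460 and 9429 barcodes and between 53990642 and 100777353 UMIs, and 88909 cells passed the filters, with medians of 2782 to 15273 UMIs per cell in a pool. Cells were placed in classes by markers that hold none of the members, and 42507 cells were placed in the 12 classes described. On the mesenchymal side these were late mesenchymal progenitor (LMP)-like, osteoblast progenitor (OBP)-like, OB1-like and OB2-like (both osteoblast), osteocyte (Ocy)-like and marrow adipogenic lineage precursor (MALP)-like cells, and on the leukocyte side macrophage-, monocyte-, osteoclast-, granulocyte-, T-cell- and basophil/mast-like cells. Each class led with some of its own markers, such as *Adipoq* and *Lpl* in MALP-like cells and *Camp* and *Ngp* in granulocyte-like cells. Cells were placed by these markers, so this does not test the classes, and some markers were higher elsewhere. Per 10000 UMIs, the monocyte marker *Ly6c2* was at 1.96 in monocyte-like and 4.78 in granulocyte-like cells. The OBP marker *Mmp13* was at 5.08 in OBP-like and 16.3 in MALP-like cells. A class was measured in a pool where it had at least 20 cells there, which held in 16 pools for LMP-, OBP-, OB1-, Ocy-, MALP- and macrophage-like cells, 14 for OB2-like, 12 for osteoclast-like, 11 for granulocyte-like, 8 for monocyte-like, 4 for T-cell-like and 3 for basophil/mast-like cells. OB2-like values lack pools 1 and 2, which the medians over 16 pools include. A level below is the UMIs of the gene per 10000 UMIs of all cells of a class in a pool, given as the median over pools with the lowest and the highest pool. Counts of pools in which a class was higher or lower are by this level throughout, not by the fitted values. Osteoblast transcripts (*Ibsp*, *Col1a1*, *Bglap*) were present in the leukocyte classes at 1.04% to 2.99% of their level in osteoblast-lineage cells. Leukocyte-side cells had to lie below a cut on mesenchymal markers that include *Col1a1*, so the gate itself limits these shares. Free RNA, mixed droplets and misplaced cells cannot be told apart here as the source of these transcripts.

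**Figure D1:**
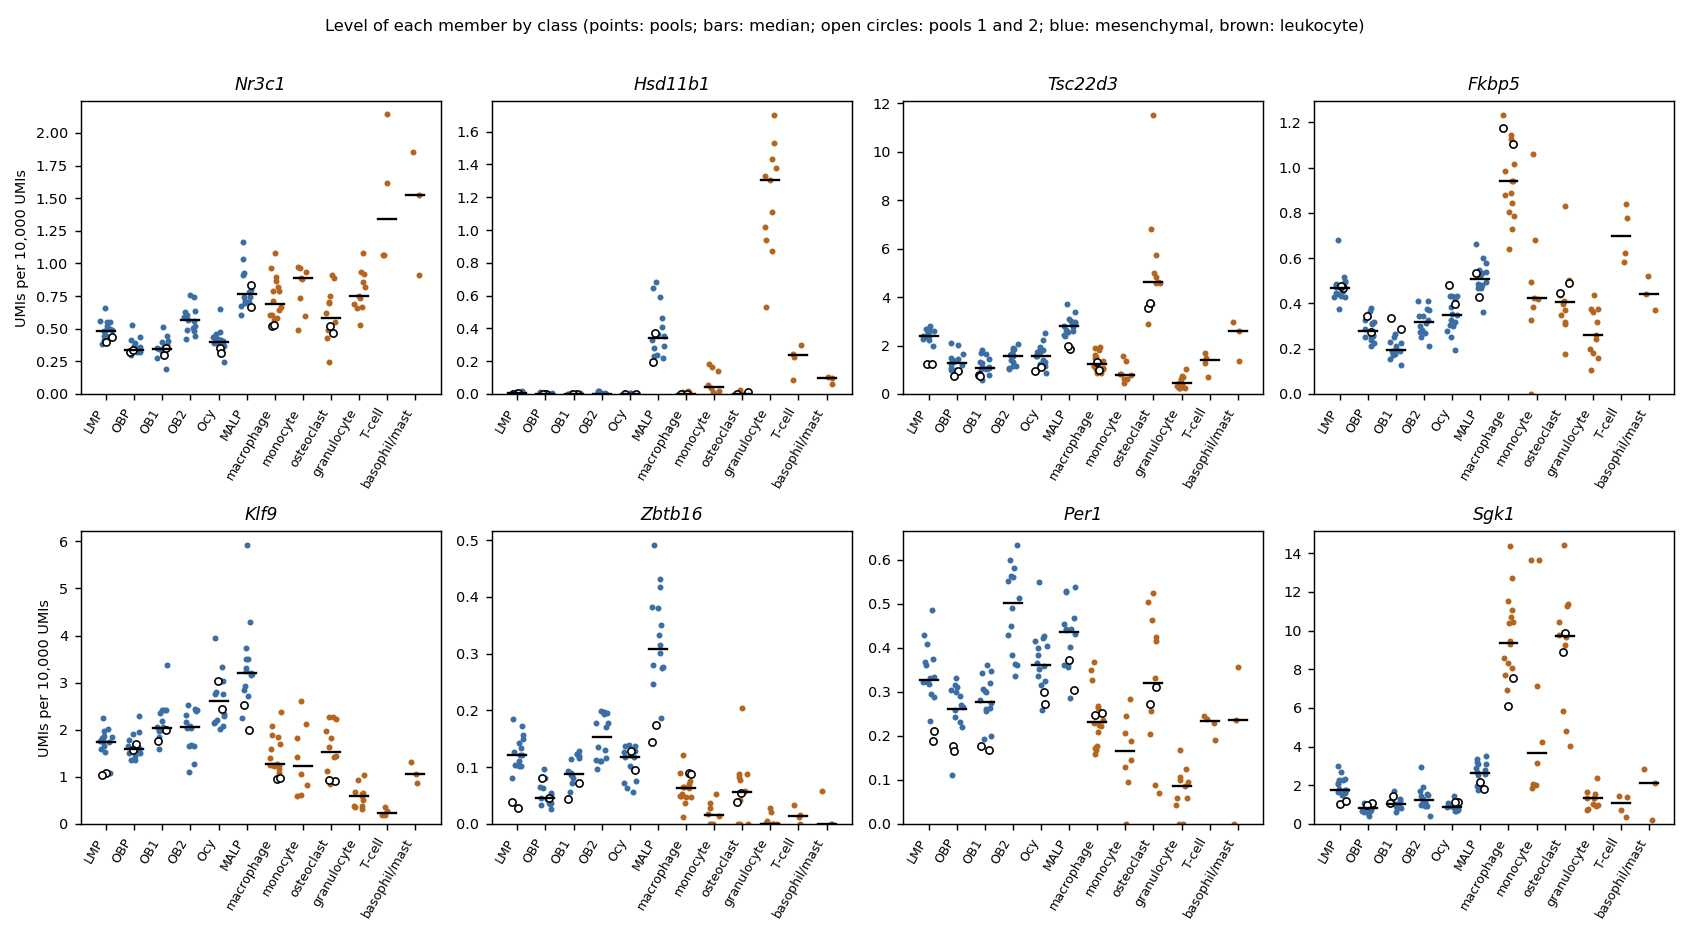
Level of each member (UMIs per 10000 UMIs, vertical axis, linear from 0) in the 12 classes (horizontal axis); points are pools, bars the median over pools, open circles pools 1 and 2. *Hsd11b1* stands above 0.1 in every pool of granulocyte-like and MALP-like cells, whereas *Nr3c1* is present in every class and *Sgk1* has medians above 9 in macrophage-like and osteoclast-like cells.

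*Nr3c1*, the receptor itself, was found in every class and in every pool. Its level was highest in basophil/mast-like cells, at a median of 1.53 over 3 pools (0.908 to 1.85), and in T-cell-like cells, at 1.34 over 4 pools, with values of 1.61, 1.06, 1.06 and 2.14 in pools 5, 6, 8 and 14. Monocyte-like (0.886), MALP-like (0.763, 0.608 to 1.16), granulocyte-like (0.752) and macrophage-like cells (0.687, 0.519 to 1.08) followed, and neighbors in this order did not differ in level beyond the spread of pools: monocyte-like cells were above MALP-like cells in 4 of 8 pools, MALP-like above granulocyte-like in 6 of 11, and granulocyte-like above macrophage-like in 7 of 11. The lower part of the order held osteoclast-like cells (0.585) and the other mesenchymal classes, with OB2-like cells at 0.564, LMP-like at 0.479 (0.383 to 0.656), Ocy-like at 0.400, OB1-like at 0.345 and OBP-like cells at 0.339. OB2-like cells were above LMP-like cells in 13 of 14 pools and LMP-like above Ocy-like cells in 14 of 16. OB1-like cells were above OBP-like cells in 6 of 16 pools, so these 2 classes could not be ordered by level. The order depends on the scaling. The fits below, scaled otherwise, called *Nr3c1* higher in granulocyte-like than macrophage-like and in OB1-like than OBP-like cells. They did not call it between Ocy-like and OB1-like cells.

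*Hsd11b1* was high in few of the 12 classes. In granulocyte-like cells, which led with the neutrophil granule genes *Camp* and *Ngp*, the level was 1.31, between 0.532 in pool 5 and 1.70 in pool 12, from 803 UMIs. In MALP-like cells it was 0.340, between 0.191 in pool 3 and 0.684 in pool 18, from 2522 UMIs, and granulocyte-like cells were above MALP-like cells in 11 of 11 pools that held both. In LMP-like cells, which share the culture and the pools, the level was 0.0034, between 0.0013 and 0.0196, from 65 UMIs. The ranges of MALP-like and LMP-like cells did not overlap. OBP-, OB1-, OB2- and Ocy-like cells gave 12, 24, 33 and 7 UMIs in all, macrophage-like cells 9 and osteoclast-like cells 3, so that 10 of 16 pools had no UMI in macrophage-like cells and 10 of 12 had none in osteoclast-like cells. *Camp* and *Ngp*, which stood at 309 and 368 per 10000 UMIs in granulocyte-like cells, were at 0.147 and 0.112 in MALP-like cells. The part of granulocyte RNA in the *Hsd11b1* level of other classes was not tested.

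T-cell-like cells held a smaller amount of *Hsd11b1*, at levels of 0.299, 0.228, 0.246 and 0.0871 in pools 5, 6, 8 and 14, from 46 UMIs. *Camp* and *Ngp* were at 1.29 and 0.820 per 10000 UMIs in these cells. Every T-cell-like pool was above the macrophage-like cells of the same pool, but the gene was too low for the test in that comparison. Monocyte-like cells were at 0.045, with no UMI in 1 of 8 pools. The source of these low levels was not tested.

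Depth differs between classes, so cells were also thinned to 2000 UMIs each, leaving out shallower cells. Of 1106 granulocyte-like cells, 19.5% had a *Hsd11b1* UMI (exact 95% interval 17.2% to 21.99%; 38.8% without thinning), and 210 cells were too shallow. Of 6019 MALP-like cells, 4.17% had one (3.68% to 4.71%; 9.67% without thinning), and 680 were too shallow. The share was 2.79% (1.40% to 4.94%) of 394 T-cell-like cells, 0.123% (0.0563% to 0.233%) of 7315 LMP-like cells and 0.0516% (0.0062% to 0.186%) of 3876 macrophage-like cells, a class with almost no transcript of this gene, whose median depth was 4987 UMIs per cell against 4357 in granulocyte-like and 9042 in MALP-like cells. In Ocy-like cells, 0 of 3394 had one after thinning. The exact interval allows up to 0.109% of cells with a UMI at this depth and does not limit the share that expressed the gene. Without thinning 0.193% had one. These intervals cover counting error only, over all pools together.

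**Figure D2:**
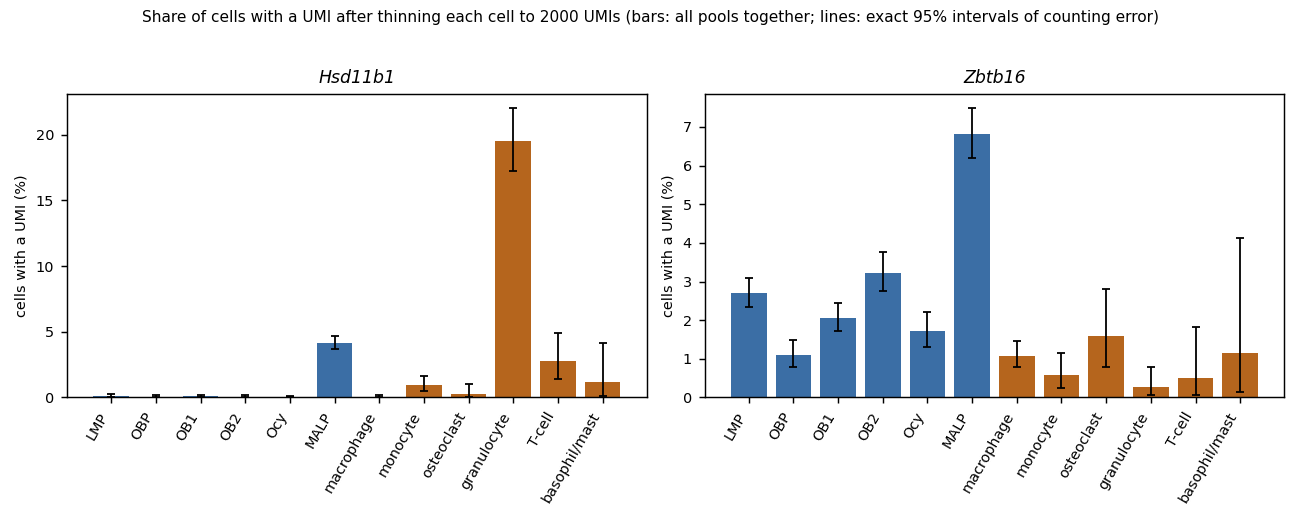
Share of cells with at least 1 UMI (percent, vertical axis from 0) of *Hsd11b1* (left) and *Zbtb16* (right) by class after each cell was thinned to 2000 UMIs; bars take all pools together and lines are exact 95% intervals of counting error. The tallest *Hsd11b1* bar is granulocyte-like at 19.5%, and the tallest *Zbtb16* bar is MALP-like at 6.81%.

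*Tsc22d3*, which encodes the leucine zipper protein GILZ, an anti-inflammatory target of the receptor, was highest in osteoclast-like cells. The median level there was 4.61, the lowest pool (8) was at 2.90 and the highest (10) at 11.5, and 11 of 12 pools were above their MALP-like cells. MALP-like cells were at 2.79 (1.85 to 3.73), LMP-like cells at 2.39 (1.22 to 2.82) and OB2- and Ocy-like cells at 1.58 and 1.56. It was lowest in granulocyte-like cells (0.455, 0.243 to 1.05) and monocyte-like cells (0.793). *Fkbp5*, a co-chaperone that lowers the receptor's affinity for hormone and so feeds back on it, had another order: macrophage-like cells were highest at 0.939 (0.640 to 1.23), followed by T-cell-like (0.699), MALP-like (0.509) and LMP-like cells (0.469), and OB1-like cells were lowest at 0.194 (0.129 to 0.337).

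The 3 transcription regulators had their highest medians in mesenchymal classes, although not every mesenchymal class was above the leukocyte classes. *Klf9*, a Krüppel-like factor, was at 3.19 in MALP-like cells (2.00 in pool 2 to 5.93 in pool 6), 2.60 in Ocy-like, 2.06 in OB2-like and 2.04 in OB1-like cells, and lowest in T-cell-like cells at 0.226, with 67 UMIs. *Zbtb16*, which encodes the zinc finger protein PLZF, was at 0.308 in MALP-like cells (0.144 to 0.491), above OB2-like cells (0.153) in 14 of 14 pools and above LMP-like cells (0.121, 0.0274 to 0.185) in 16 of 16. In OBP-like cells *Zbtb16* was at 0.046, below its medians in macrophage-like (0.0633) and osteoclast-like cells (0.0562). Granulocyte-like cells had 5 *Zbtb16* UMIs in all, with none in 8 of 11 pools. *Per1*, a clock gene that the receptor also induces, was highest in OB2-like cells at 0.501 (0.337 to 0.633) and in MALP-like cells at 0.437, and OB2-like cells were above MALP-like cells in 12 of 14 pools. Its median in osteoclast-like cells (0.321) was above those in OB1-like (0.278) and OBP-like cells (0.262), with overlapping ranges. In thinned cells, 6.81% of MALP-like cells had a *Zbtb16* UMI (6.19% to 7.48%), against 3.23% of OB2-like, 2.69% of LMP-like and 0.271% of granulocyte-like cells.

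*Sgk1*, a kinase that regulates ion transport and survival, was highest in 2 leukocyte classes. Osteoclast-like cells were at 9.72 (4.01 to 14.4) and macrophage-like cells at 9.37 (6.08 in pool 1 to 14.4 in pool 14). The former were higher in 7 of 12 pools, and the ranges overlapped. Monocyte-like cells were spread widely, with 13.7 in pools 5 and 6, 7.15 in pool 18 and between 1.86 and 4.24 in the other pools. MALP-like cells were at 2.63 (1.77 to 3.52), LMP-like cells at 1.77 (1.05 to 2.99) and OBP-like cells lowest at 0.833 (0.409 to 1.09). The other leukocyte classes lay among the mesenchymal ones, with basophil/mast-like cells at 2.11, granulocyte-like cells at 1.32 (0.734 to 2.37) and T-cell-like cells at 1.05 (0.358 to 1.46).

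The comparison of MALP-like with LMP-like cells asked how the genes differ between the adipogenic precursors and the progenitors of the same pools. *Hsd11b1* was higher by level in 16 of 16 pools, with a fitted log2 fold change of 6.13, but LMP-like cells held only 1 to 13 of its UMIs in a pool, so it passed the count filter through MALP-like cells, where it is high, and its value is a description left out of the count. Of the other 7 members, 5 were higher, 1 was lower and 1 did not pass, at an adjusted p of 0.05 in edgeR's quasi-likelihood test over 11626 genes, of which 71% were called (35.6% higher and 35.4% lower). *Zbtb16* rose by 1.24 (SE 0.10, adjusted p = 1.13e-10), *Klf9* by 0.74 (SE 0.05, adjusted p = 1.43e-11), *Nr3c1* by 0.50 (SE 0.04, adjusted p = 4.2e-10) and *Sgk1* by 0.24 (SE 0.06, adjusted p = 0.00185) on the log2 scale. By level each was higher in 16 of 16 pools, but levels follow total-count scaling, under which the median gene is at 0.23. In pool 9 the *Sgk1* levels were 1.77 in MALP-like and 1.74 in LMP-like cells. *Per1* at 0.15 (SE 0.07, adjusted p = 0.0462) was near the threshold and lost its call without pool 6 (adjusted p = 0.0668), without pool 13 (0.0654), with RLE scaling (0.0586), with DESeq2 (0.098), with no filter on low counts (0.0736) and without the top 5% of droplets by UMIs (0.0654). *Tsc22d3* differed by 0.05 (SE 0.05, adjusted p = 0.396).

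The direction of *Fkbp5* between these classes depended on the scaling. By level it was higher in MALP-like cells in 13 of 16 pools, while the fitted log2 fold change was -0.11 (SE 0.05, adjusted p = 0.0388), and with total-count scaling it became 0.11 (adjusted p = 0.0317). TMM normalization, used in the test, puts the median over all genes at 0.01, whereas total-count scaling puts it at 0.23 on the log2 scale, so *Fkbp5* stood below the median gene under both. The share of called genes that were higher moved from 50.1% to 72.8% between these scalings. The call was also lost without pool 6 (-0.10, adjusted p = 0.0757), in the second run (-0.09, adjusted p = 0.0713), with no filter on low counts (-0.12, adjusted p = 0.062) and with a stricter gate, which asks for a margin of 0.5 over the next class (-0.07, adjusted p = 0.26). With total-count scaling *Tsc22d3* passed as higher (0.27, adjusted p = 4.8e-05), close to the median shift.

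Genes of hormone supply were called in both directions in MALP-like cells. Of 5 such genes 4 were tested, and leaving out *Hsd11b2*, which entered through MALP-like cells alone, 2 were higher and 1 lower, where 71% of all genes were called. *H6pd*, which feeds cofactor to the enzyme, was at a level of 0.643 in MALP-like cells (0.422 to 0.941) and 0.187 in LMP-like cells (0.132 to 0.265), a log2 fold change of 1.59 (SE 0.07, adjusted p = 7.53e-15). *Hsd11b2*, the enzyme of the reverse reaction, was at 0.101 (0.0225 to 0.296) and 0.0014. It gave at most 25 UMIs in any of LMP-, OBP-, OB1- and OB2-like cells, with none in 3 LMP-like pools, so no fold or test is given for it. By level its ranges in MALP-like and LMP-like cells did not overlap. *Por* was higher (0.77) and *Abcb1b*, a drug efflux pump that exports dexamethasone, was lower (-1.22).

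The counts of the lists that follow stand against 71% of all genes called in this comparison, 35.6% higher and 35.4% lower, and nothing particular to a list is read from them. Of 30 other genes known to be induced by glucocorticoids, 28 were tested, and 21 were higher, 3 lower and 4 not called, with a median log2 fold change of 0.57. *Angptl4*, an inhibitor of lipoprotein lipase, rose by 3.61, *Serpina3n* by 3.51, *Sult1a1*, a sulfotransferase, by 3.45 and *Glul*, glutamine synthetase, by 3.13 on the log2 scale. Of 13 tested genes of the receptor complex and its cofactors, 4 were higher and 7 lower (median -0.26), among them the coactivator *Ncoa1* (0.94) and the chaperone *Hsp90ab1* (-0.58). Of 10 tested inflammatory genes known to be repressed, 3 were higher and 3 lower (median 0.01), with *Vcam1*, an adhesion molecule, at 4.10 and the prostaglandin synthase *Ptgs2* at -2.32. Of 14 clock genes, 7 were higher and 4 lower (median 0.25), with *Per2* at 1.32 and *Bhlhe40* at -1.16. All 12 genes of the dissociation and stress response were higher in MALP-like cells (median 0.62), led by *Zfp36* at 1.07, and the part of this response in the values of the members was not tested.

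**Figure D3:**
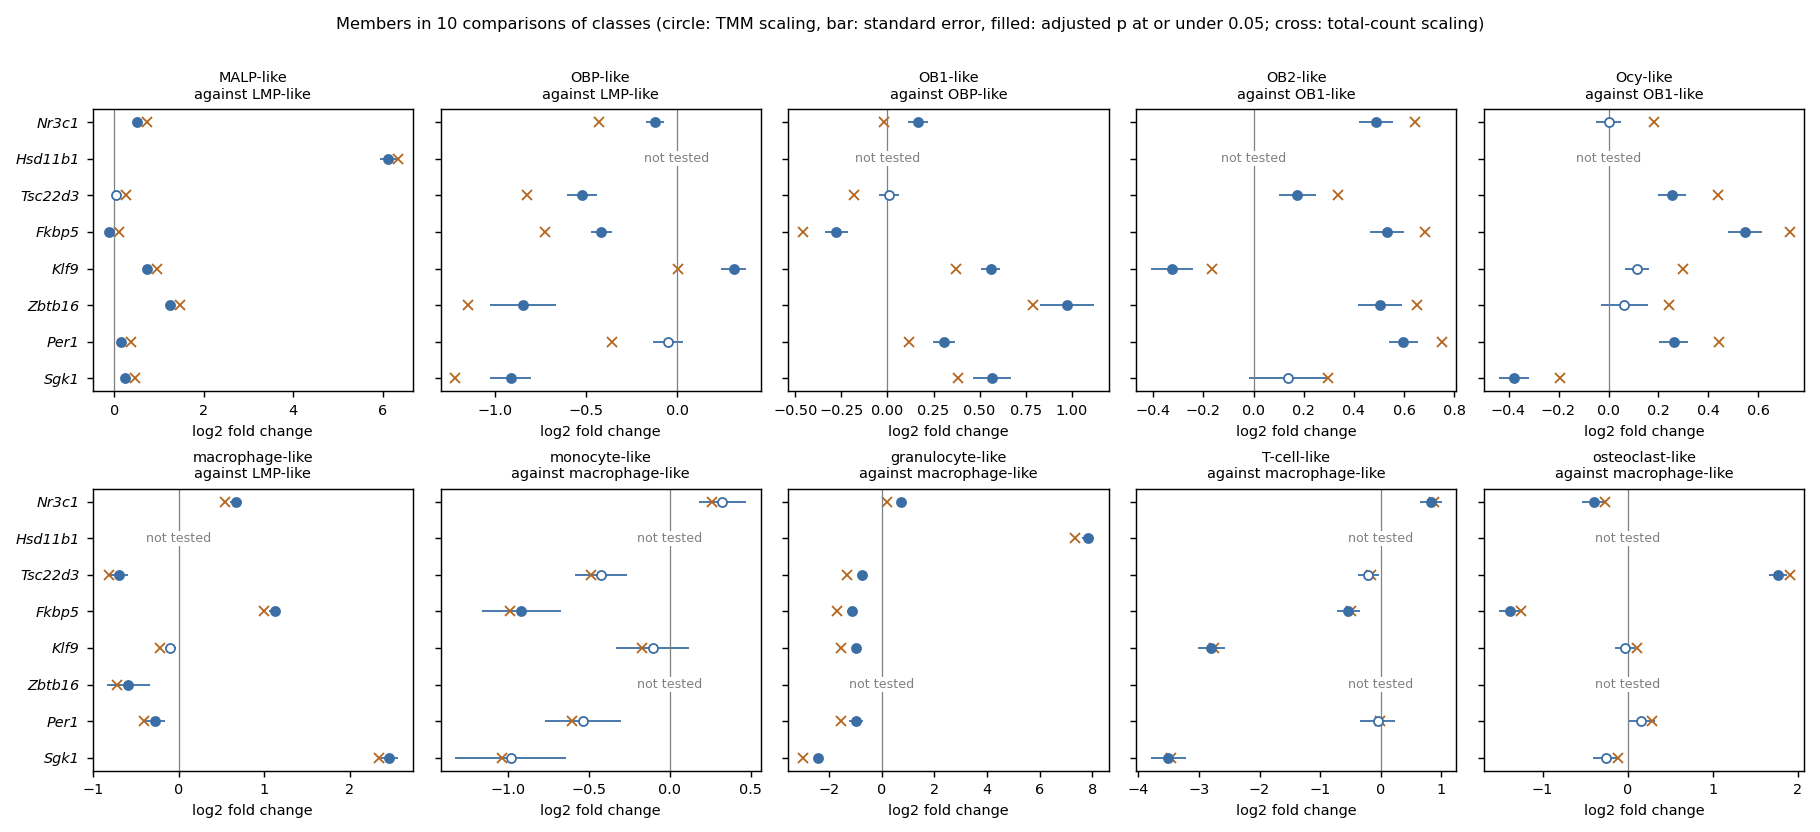
Log2 fold change (horizontal axes, a scale for each panel) of each member in 10 comparisons of classes; circles are the edgeR fit with TMM scaling and bars its standard error, filled circles passed an adjusted p of 0.05, and crosses are the same fit with total-count scaling. The fitted value of *Hsd11b1* is 6.13 in MALP-like against LMP-like cells and 7.83 in granulocyte-like against macrophage-like cells. These circles and that of *Per1* in granulocyte-like cells are descriptions although filled, since the genes passed the count filter through the class where they are high. *Fkbp5* in MALP-like cells changes sides between the scalings.

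Along the osteogenic classes, each compared with the class before it or with OB1-like cells, members were called in both directions in every comparison. In OBP-like against LMP-like cells, 7 members were tested, and 5 were lower, 1 higher and 1 not called, where 72.9% of 11366 genes were called (35.6% higher and 37.3% lower). *Sgk1* fell by 0.92 (SE 0.11, adjusted p = 1.6e-07), *Zbtb16* by 0.85 (SE 0.18, adjusted p = 0.000225), *Tsc22d3* by 0.52 (SE 0.08, adjusted p = 5.33e-06), *Fkbp5* by 0.42 (SE 0.06, adjusted p = 1.06e-06) and *Nr3c1* by 0.12 (SE 0.05, adjusted p = 0.0256) on the log2 scale. *Klf9* was higher by 0.31 (adjusted p = 0.000275), but by level it was higher in only 7 of 16 pools, and with total-count scaling, under which the median gene is at -0.32, the difference was 0.0044 (adjusted p = 0.955). Total-count scaling lowered the share of called genes that were higher from 48.8% to 23.5%, and *Per1* then passed as lower (-0.36, adjusted p = 0.000269; -0.05 in the TMM fit). *Tsc22d3*, *Fkbp5* and *Nr3c1* were lower by level in 16 of 16 pools. *Sgk1* was not lower in pool 1 (1.08 in OBP-like and 1.05 in LMP-like cells), and *Zbtb16* was not in pools 1 and 2. Of 3 tested genes of steroid supply, all 3 were lower, among them *H6pd* (-0.96), and of 26 other induced genes 14 were higher and 6 lower (median 0.28). Of 9 repressed inflammatory genes 5 were lower and 0 higher (median -0.93), and of 12 dissociation genes 8 were higher and 2 lower (median 0.50). Of 14 clock genes 8 were lower and 2 higher (median -0.18), led by *Dbp* at -1.91.

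In OB1-like against OBP-like cells 5 of 7 tested members were higher and 1 lower, where 51.7% of 10754 genes were called (24.8% higher and 26.9% lower). *Zbtb16* rose by 0.97 (SE 0.15, adjusted p = 7.6e-06), *Sgk1* by 0.57 (SE 0.10, adjusted p = 5.78e-05), *Klf9* by 0.56 (SE 0.05, adjusted p = 5.64e-09) and *Per1* by 0.31 (SE 0.06, adjusted p = 0.000121) on the log2 scale, while *Fkbp5* fell by 0.28 (SE 0.06, adjusted p = 0.00059). *Nr3c1* was called higher at 0.16 (adjusted p = 0.0122), but was lower by level in 10 of 16 pools and at -0.02 (adjusted p = 0.766) with total-count scaling, where the median gene is at -0.20. *Per1* also lost its call with that scaling (0.12, adjusted p = 0.089), and *Tsc22d3*, at 0.01 (adjusted p = 0.916) with TMM, passed as lower (-0.18, adjusted p = 0.00867), as the share of higher genes among those called went from 47.9% to 20.7%. Of 12 dissociation genes 8 were higher and 3 lower (median 0.27). *Zbtb16* thus was lower in the fits in OBP-like than in both LMP-like and OB1-like cells. By level OBP-like cells were above LMP-like cells in pools 1 (0.0464 against 0.0274) and 2 (0.0813 against 0.0393). In pool 2 they were also above OB1-like cells (0.0439).

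OB2-like cells, which led with *Egln3* and *Ero1l*, genes of the hypoxia and secretory responses, had higher levels of most members than OB1-like cells. Of 7 tested, 5 were higher and 1 lower, where 63.6% of 11226 genes were called (32.1% higher and 31.5% lower). *Per1* rose by 0.60 (SE 0.06, adjusted p = 5.04e-08), *Fkbp5* by 0.53 (SE 0.07, adjusted p = 1.59e-06), *Zbtb16* by 0.50 (SE 0.09, adjusted p = 6.16e-05) and *Nr3c1* by 0.49 (SE 0.07, adjusted p = 3.81e-06) on the log2 scale, and by level each was higher in at least 13 of 14 pools. *Tsc22d3* was called at 0.17 (adjusted p = 0.049), and the call was lost in the second run (adjusted p = 0.0637), with no filter on low counts (0.0706), with the stricter gate (0.0999), without the top 5% of droplets (0.0585) and with at least 50 cells per pool and class (0.0672). *Klf9* was called lower at -0.33 (adjusted p = 0.00217), was lower by level in 8 of 14 pools, and lost the call with total-count scaling (-0.16, adjusted p = 0.0793), which raised the share of higher genes among those called from 50.5% to 67.6%. Of 14 clock genes 6 were higher and 4 lower (median 0.23), led by *Dbp* at 2.37, and of 26 other induced genes 11 were higher and 8 lower (median 0.03), led by the Krüppel-like factor *Klf15* at 1.28. Of 12 dissociation genes, 8 were lower and 3 higher (median -0.42).

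In Ocy-like against OB1-like cells 3 of 7 tested members were higher and 1 lower, where 51.1% of 10052 genes were called (25.6% higher and 25.6% lower). *Fkbp5* rose by 0.55 (SE 0.07, adjusted p = 2.4e-07), *Per1* by 0.26 (SE 0.06, adjusted p = 0.000549) and *Tsc22d3* by 0.25 (SE 0.06, adjusted p = 0.000471) on the log2 scale, and *Sgk1* fell by 0.38 (SE 0.06, adjusted p = 8.4e-06). By level, *Fkbp5* and *Per1* were higher in 16 of 16 pools. *Klf9* was at 0.11 (adjusted p = 0.055), and it passed without pool 6 (0.12, adjusted p = 0.042), with the stricter gate (0.16, adjusted p = 0.0245), without the top 5% of droplets (0.14, adjusted p = 0.0361) and with total-count scaling (0.30, adjusted p = 2.43e-06). With that scaling, under which the median gene is at 0.20 and 79.7% rather than 50% of called genes were higher, *Nr3c1* (0.18, adjusted p = 0.00342) and *Zbtb16* (0.24, adjusted p = 0.0264) passed too, against 0.00 and 0.06 in the TMM fit. Among the 12 dissociation genes 6 were higher and 1 lower (median 0.17).

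Macrophage-like cells were compared with LMP-like cells to set the leukocytes of the culture against its stroma, and the other leukocyte classes were then compared with these same macrophage-like cells, which those comparisons share. Of 7 tested members 3 were higher and 3 lower, where 84.2% of 10725 genes were called (38.5% higher and 45.7% lower), and the median gene stood at -0.11 on the log2 scale. *Sgk1* rose by 2.46 (SE 0.10, adjusted p = 7.5e-18), 5.51-fold, and the ranges of both classes did not overlap. *Fkbp5* rose by 1.12 (SE 0.06, adjusted p = 1.61e-15), 2.17-fold, and *Nr3c1* by 0.67 (SE 0.07, adjusted p = 1.05e-09), both in 16 of 16 pools. *Tsc22d3* fell by 0.69 (SE 0.11, adjusted p = 1.74e-06), in 15 of 16 pools. *Zbtb16* (-0.59, adjusted p = 0.0315) and *Per1* (-0.27, adjusted p = 0.037) were called lower, and both lost the call without pool 13 (adjusted p = 0.0585 and 0.084), as did *Zbtb16* with the stricter gate (0.0608) and *Per1* without the top 5% of droplets (0.052). *Klf9* was not called (-0.10, adjusted p = 0.152) but was lower by level in 13 of 16 pools, and it passed as lower in the second run (-0.17, adjusted p = 0.0173), with RLE (-0.20, adjusted p = 0.00495), with DESeq2 (-0.21, adjusted p = 0.00346) and with total-count scaling (-0.22, adjusted p = 0.00296). Of 26 other induced genes 12 were higher and 12 lower. This list holds genes far apart between the classes, such as *Cd163* at 7.97 and *Lox* at -4.61, so nothing is read from its count. No count is given for the repressed inflammatory genes, since several, such as *Tnf* and *Il1b*, had median levels of only 0.0288 and 0.0068 in LMP-like cells. Of 12 dissociation genes 8 were lower and 3 higher (median -1.03), and their part in the values of the members was not tested. *Por* was at 2.55.

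Granulocyte-like cells were compared with macrophage-like cells for 6 members beside *Hsd11b1*, and *Per1* is left out of the count for its few UMIs. Of the others, *Nr3c1* was called higher and *Sgk1*, *Fkbp5*, *Klf9* and *Tsc22d3* lower, where 70.8% of 6627 genes were called (34.6% higher and 36.2% lower). *Hsd11b1* was higher by level in 11 of 11 pools without overlap of the ranges, with a fitted log2 fold change of 7.83, but with 9 macrophage UMIs over all 16 pools it passed the filter through granulocyte-like cells, and this value is a description that rests on few counts. *Sgk1* fell by 2.44 (SE 0.14, adjusted p = 2.43e-13), *Fkbp5* by 1.13 (SE 0.17, adjusted p = 3.5e-06), *Klf9* by 0.97 (SE 0.15, adjusted p = 2.99e-06) and *Tsc22d3* by 0.75 (SE 0.18, adjusted p = 0.000833) on the log2 scale, each lower by level in 11 of 11 pools. *Per1* was lower by a fitted 0.98 on the log2 scale, and by level in 11 of 11 pools. Granulocyte-like cells held 0 of its UMIs in pools 5 and 9 and 22 in pool 18. It passed the count filter through macrophage-like cells, so its value is a description. *Nr3c1* was called higher at 0.75 (SE 0.13, adjusted p = 1.72e-05), but by level it was higher in 7 of 11 pools, and with total-count scaling, which puts the median gene at -0.59, it was at 0.19 (adjusted p = 0.178) and 23.8% rather than 48.8% of called genes were higher. By the medians over pools, granulocyte-like cells had the highest *Hsd11b1* level of the 12 classes and the lowest *Tsc22d3* and *Per1* levels. *H6pd* was higher than in macrophage-like cells (1.66), and of 20 other induced genes 5 were higher and 10 lower (median -0.47). This list holds genes far apart between the classes, such as *Lcn2* at 11.7 and *Cd163* at -6.49, so nothing is read from its count. Of 11 dissociation genes 7 were lower and 2 higher (median -0.86).

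Osteoclast-like cells had 1 member higher and 2 lower than macrophage-like cells of 6 tested, where 45.9% of 7434 genes were called (22.6% higher and 23.3% lower). *Tsc22d3* rose by 1.77 (SE 0.11, adjusted p = 1.09e-11), 3.41-fold, in 12 of 12 pools with no overlap of the ranges. *Fkbp5* fell by 1.39 (SE 0.13, adjusted p = 6.33e-09), lower in 11 of 12 pools. These 2 genes, both induced by the receptor, thus moved in opposite directions in the same cells. *Nr3c1* was called lower at -0.40 (adjusted p = 0.0167) and lost the call with total-count scaling (-0.27, adjusted p = 0.115), where 64.3% rather than 49.2% of called genes were higher, and with at least 50 cells (-0.22, adjusted p = 0.326). *Per1* was not called (0.16, adjusted p = 0.449) but passed as higher in the second run (0.58, adjusted p = 0.000993). *Sgk1* was not called either (-0.25, adjusted p = 0.174), passed as lower with no filter on low counts (-0.33, adjusted p = 0.00844), and was at 0.24 (adjusted p = 0.147) with at least 50 cells. Of 20 other induced genes 3 were higher and 8 lower (median -0.20), with *Cd163* at -4.59 and *Anxa1* at 1.26, and nothing is read from this count. The dissociation list had 6 of 12 genes lower and 3 higher (median -0.39).

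Monocyte-like cells differed from macrophage-like cells in 1 of 6 tested members, where 23.3% of 7992 genes were called (11.7% lower). *Fkbp5* fell by 0.92 (SE 0.25, adjusted p = 0.016), lower in 7 of 8 pools. *Sgk1* was at -0.99 (SE 0.34, adjusted p = 0.0525), and it passed without pool 6 (-1.24, adjusted p = 0.0156), with DESeq2 (-1.05, adjusted p = 0.0181), with no filter on low counts (-1.06, adjusted p = 1.96e-08) and with total-count scaling (-1.04, adjusted p = 0.0377), where 39.6% rather than 49.7% of called genes were higher. *Tsc22d3* (-0.42, adjusted p = 0.072) also passed with that scaling (-0.49, adjusted p = 0.0372), in the second run (-0.50, adjusted p = 0.0178), with no filter (-0.49, adjusted p = 0.028) and without the top 5% of droplets (-0.48, adjusted p = 0.0357). Among the 12 dissociation genes 6 were lower and 0 higher (median -0.62).

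T-cell-like cells differed from macrophage-like cells in 4 of 6 tested members over 4 pools, where 56.7% of 7771 genes were called (26.9% higher and 29.8% lower). *Sgk1* fell by 3.51 (SE 0.29, adjusted p = 2.94e-07) and *Klf9* fell by 2.79 (SE 0.22, adjusted p = 1.93e-07) on the log2 scale, both without overlap of the ranges, and *Nr3c1* was higher (0.83, SE 0.18, adjusted p = 0.00154), in 4 of 4 pools. *Fkbp5* (-0.53, adjusted p = 0.0273) lost its call without pool 5 (adjusted p = 0.0537), without pool 6 (0.163), without pool 8 (0.051), with DESeq2 (0.0612) and with total-count scaling (0.0531). Of 12 dissociation genes 10 were lower and 0 higher (median -1.73), and of 20 other induced genes 12 were lower and 4 higher (median -0.90). The latter hold genes far apart between the classes, such as *Mertk* at -4.58 and *Cd163* at -4.32, so nothing is read from their count. The part of the dissociation response in the values of the members was not tested.

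Pools also differed in the members within a class, and pools 1 and 2 stood apart in LMP-like cells. They held the 2 lowest values of *Tsc22d3* (1.23 and 1.22, against 1.97 to 2.82 in the other 14 pools), *Zbtb16* (0.0274 and 0.0393, against 0.0812 to 0.185), *Sgk1* (1.05 and 1.20, against 1.48 to 2.99), *Per1* (0.187 and 0.210, against 0.233 to 0.485) and *Klf9* (1.08 and 1.04, against 1.09 to 2.24). These are 5 of the 7 members with a median level of at least 0.1, and over 7766 genes of at least that level pools 1 and 2 were both lowest in 9.3% and both highest in 13.1%. In MALP-like cells both were lowest for *Tsc22d3* and *Zbtb16*, 2 of 8 members, against 1.47% of genes. In macrophage-like cells both were lowest for *Nr3c1* and *Klf9*, 2 of 6 members, against 4.07% of genes. In OBP-like cells this held for *Tsc22d3* and in OB1-like cells for *Per1*, each 1 of 6 members, while *Fkbp5* was highest in both pools in OB1-like cells, and 0 of 7 members were lowest or highest in Ocy-like cells. Neither *Nr3c1* nor *Fkbp5* was among them in LMP-like cells. Pools 1 and 2 were noticed from these values, so this is a description with no test. Their make-up differed too, with 4 and 1 OB2-like cells (103 to 651 in the other pools) and 227 and 169 osteoclast-like cells (9 to 54).

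The same pools stood apart for other gene groups in LMP-like cells. The counts stand against 9.3% of 7766 genes lowest in both pools and 13.1% highest in both. Pools 1 and 2 were lowest for 8 of 12 dissociation and stress response genes, such as *Fos* (2.02 and 2.79, against 3.38 to 5.58) and *Btg2* (1.99 and 1.65, against 3.51 to 8.42). They were also lowest for 7 of 21 other induced genes, such as *Dusp1* (0.972 and 1.20, against 1.44 to 2.64). For 1 of the 21, *Anxa1*, both were highest (11.4 and 12.0, against 4.89 to 9.75). They were highest for 4 of 13 genes of the receptor complex and its cofactors, the chaperone *Hspa8* (17.3 and 18.6, against 9.26 to 14.5) and *Fkbp4*, *Ptges3* and *Stip1*, which load or hold the receptor on HSP90. For 1 of the 13, *Ncoa1*, both were lowest (0.0937 and 0.1, against 0.1134 to 0.1885). These genes were named after their values were seen. The median depth of pools 1 and 2 was 3774 and 10291 UMIs per kept cell. The part of the dissociation response in the low values of the members was not tested, and the labels give no batch for the pools.

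**Figure D4:**
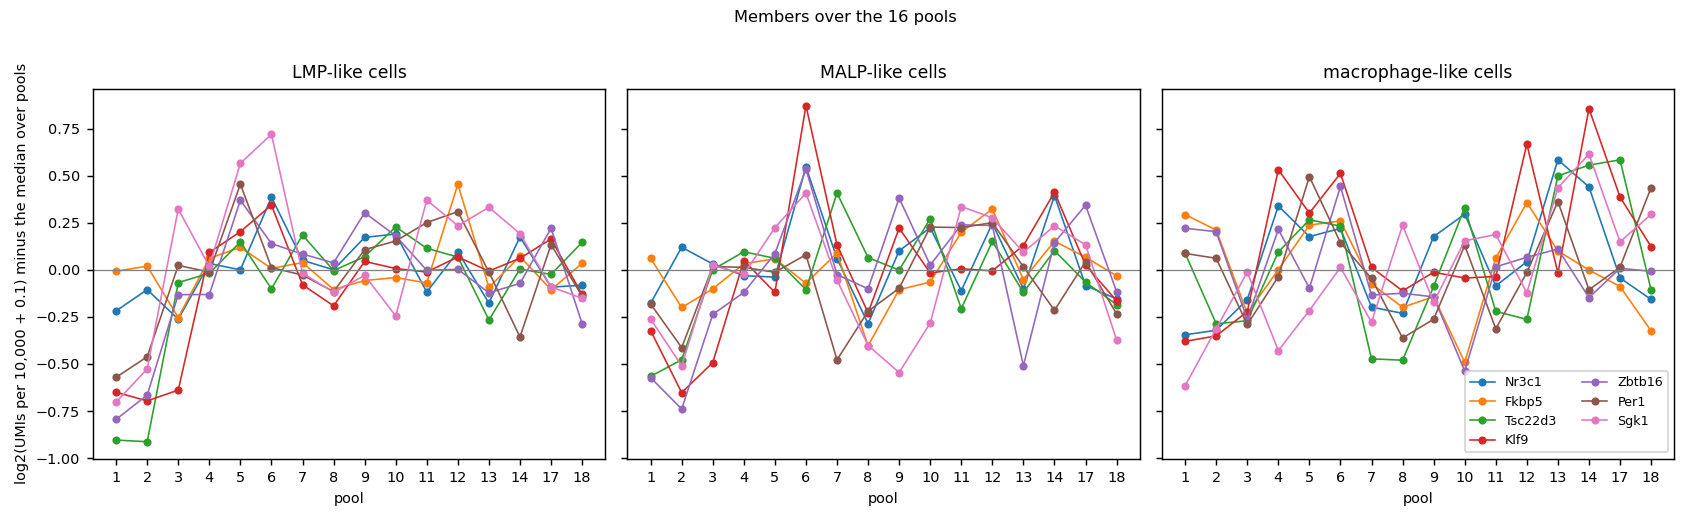
Members in LMP-like (left), MALP-like (middle) and macrophage-like cells (right) of the 16 pools (horizontal axis); the vertical axis is log2(UMIs per 10000 + 0.1) minus the median over pools, and lines join the points of a gene only to guide the eye. In LMP-like cells 5 genes lie lowest in pools 1 and 2, while *Fkbp5* does not.

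Whether pools high for 1 member were high for another was examined over 16 pools for the 28 pairs of members, on log2(UMIs per 10000 + 0.1), with permutation tests of 100000 resamples and Benjamini-Hochberg adjustment over the pairs of a class. In LMP-like cells all 28 Pearson correlations were positive and 10 passed, but 0 did by Spearman's rho, where 7 of the 10 had an unadjusted permutation p of at most 0.05. The share of all pairs of genes that pass in a class was not measured, so these counts are not read as particular to the members. *Per1* and *Zbtb16* had r = 0.82 (permutation p = 0.0002, adjusted p = 0.0056) and rho = 0.69 (permutation p = 0.00438, adjusted p = 0.0706), and r was 0.58 without the 2 pools farthest from the median of *Per1*. *Tsc22d3* and *Zbtb16* had r = 0.84 (permutation p = 0.00124, adjusted p = 0.0102) and rho = 0.54 (permutation p = 0.0332, adjusted p = 0.116), and r was 0.30 without the 2 farthest. Without pools 1 and 2 none of the pairs passed by Pearson's r, over 14 pools. The correlation of *Nr3c1* and *Klf9* was then 0.65 (adjusted p = 0.267), against 0.67 with them, while that of *Tsc22d3* and *Klf9* went from 0.69 to 0.03 and that of *Tsc22d3* and *Zbtb16* from 0.84 to 0.30.

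In macrophage-like cells 2 pairs passed by both measures, again with no share over all pairs of genes to set beside them. *Fkbp5* and *Zbtb16* had r = 0.74 (permutation p = 0.00081, adjusted p = 0.0227) and rho = 0.75 (permutation p = 0.00118, adjusted p = 0.0311), with r = 0.66 (adjusted p = 0.115) without the 2 farthest pools, but *Zbtb16* had only 158 UMIs in these cells. *Nr3c1* and *Tsc22d3* had r = 0.69 (permutation p = 0.00349, adjusted p = 0.0489) and rho = 0.72 (permutation p = 0.00222, adjusted p = 0.0311), with r = 0.54 (adjusted p = 0.335) without the 2 farthest. In MALP-like cells 1 pair passed by Pearson's r, *Zbtb16* and *Klf9* (r = 0.72, permutation p = 0.00153, adjusted p = 0.0428; rho = 0.64, permutation p = 0.00851, adjusted p = 0.15; r = 0.56 without the 2 farthest). Pool 6 was the highest pool for *Klf9*, *Nr3c1*, *Zbtb16* and *Sgk1* in MALP-like cells, and without it this pair was at r = 0.64 (adjusted p = 0.139) while the macrophage-like pairs were at nearly the same r with an adjusted p above 0.05 (*Fkbp5* and *Zbtb16* 0.73, adjusted p = 0.051; *Nr3c1* and *Tsc22d3* 0.68, adjusted p = 0.0795).

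The genes most like each member were sought across all classes. Over 148 sums of a class in a pool and 10730 genes, with gating markers left out, the genes most like *Hsd11b1* by Pearson's r were *G0s2* (0.92), *Lbp* (0.89) and *Tmem216* (0.88), and those most like *Sgk1* were *Ctsb* (0.92), *Tmem106a* (0.92) and *Lipa* (0.91). *Zbtb16* was most like *Aldh6a1* (0.84), *Thra* (0.83) and *Arhgap29* (0.83), *Klf9* most like *Tcf7l2* (0.84), *Lrrc58* (0.81) and *Fndc3b* (0.81), and *Nr3c1* most like *Arl6ip1* (0.83), *Elf1* (0.83) and *Ankrd44* (0.82). For *Fkbp5* these were *Tbc1d14* (0.79), *Fbxo11* (0.75) and *Jade2* (0.74), for *Tsc22d3* *Kif1bp* (0.78), *Tbc1d17* (0.78) and *Zfp444* (0.77), and for *Per1* *Pttg1ip* (0.79), *Map2k1* (0.76) and *Arhgap5* (0.76). Between members the highest value was 0.72, for *Zbtb16* and *Klf9*, and the lowest was -0.37, for *Per1* and *Hsd11b1*. The sums share pools and classes, so these correlations are a description.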

How the data were processed

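Per the labels, cells were captured with a 10x 3′ kit and the authors made the matrices with Cell Ranger 5.0.0 against GRCm38 (mm10). The deposited values are raw UMI counts per gene and barcode, one matrix for each pool and run, and replicates were not merged. The second run holds the same droplets, with 98.2% of barcodes shared over all pools (84.5% in pool 13, the lowest, to 99.8% in pool 8), so it is no replicate and served as an alternative. Any 2 pools shared at most 28 barcodes (0.434% of the smaller pool).

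Kept barcodes had 400 to 6200 genes, and of their UMIs no more than 10% were mitochondrial, 20% from Rpl and 15% from Rps genes. Cells with at least 1000 UMIs were placed by 111 marker genes, first on the mesenchymal or the leukocyte side and then in the class with the highest mean score (at least 0.5, and 0.25 above the next). The scoring rule was set after marker values were seen, and between 1.9% and 27.6% of the cells of a class lay within 0.1 of a cut, the most in OBP-like cells. Of 53597 cells on the mesenchymal side and 16330 on the leukocyte side, 19156 and 7705 stayed unplaced. Gates for endothelial cells (310 cells) and B cells (249 cells) were not used as classes. The first had 2 of its markers among its 10 leading genes, the second led with immunoglobulin genes but also with *Mmp12* and *Gpnmb*, which macrophages express, and 32.6% and 27.7% of their cells lay near a cut. No doublet caller was run, 2737 droplets high for both sides were left out, and the authors' genotype-based doublet calls were not used here. The members and gene lists were chosen with earlier results of these data known.

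Counts were summed per pool and class with at least 20 cells, and classes were compared with edgeR 4.0.16 (quasi-likelihood test, TMM, filterByExpr, pool as a block; R 4.3.3), with Benjamini-Hochberg adjustment over all genes tested and a threshold of 0.05. The pool pairs the classes by design, since both come from the same combined mice and the same capture. Mice were not told apart, and the paper reports that cell-type proportions varied highly between mice. The classes of a pool can therefore hold its mice in different shares, and differences between mice can enter a comparison of classes. Deviations from class means correlated at medians of 0.11 to 0.393 within a pool and -0.052 to -0.006 between pools. Standard errors were taken from the fitted log2 fold change and its F statistic. The code was also run on simulated counts without pool effects, which cannot test the pairing by pool, and no result is drawn from them. Relations over pools used permutation tests written in numpy 2.4.6, with ranks from scipy 1.17.1. All 8 members were named; of each list, at most 4 genes with the largest change among those called were named per comparison, and genes named for pools 1 and 2 were chosen after their values were seen. Alternatives were the second run, RLE scaling, DESeq2 1.42.0, no filter on low counts, no replicate block, a stricter gate, leaving out the top 5% of droplets by UMIs, at least 50 cells, and leaving out pool 13. Leaving out pool 6, pools 1 and 2 or each T-cell-like pool, and total-count scaling, were added after seeing the data.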

Additional observations from a re-analysis of the deposited data

How the results depend on the processing

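Leaving out *Hsd11b1*, but with *Per1* in granulocyte-like cells still counted, 66 member values were tested and 48 called, and 33 of these kept their call under every alternative run and 46 kept their direction. The exceptions in direction were *Fkbp5* in MALP-like against LMP-like cells (0.11) and *Nr3c1* in OB1-like against OBP-like cells (-0.0211), both with total-count scaling. Values that were not called crossed 0 for *Tsc22d3* in MALP-like cells (-0.0004 without the top 5% of droplets), *Per1* in OBP-like cells (0.0459 in the second run), *Tsc22d3* in OB1-like cells (-0.18 with total-count scaling, -0.0156 without the top 5%), *Sgk1* in OB2-like cells (-0.0178 with the stricter gate) and *Nr3c1* in Ocy-like cells (-0.0099 with RLE, -0.0053 with DESeq2, -0.0177 with no filter, -0.0181 with at least 50 cells, and -0.0046 to 0.0001 without pool 6 or pool 13). In leukocyte classes the same held for *Klf9* in monocyte-like (0.0832 in the second run, 0.006 with the stricter gate, 0.14 with at least 50 cells) and osteoclast-like cells (0.11 with total-count scaling), *Sgk1* in osteoclast-like cells (0.24 with at least 50 cells) and *Per1* in T-cell-like cells (0.0846 in the second run, 0.0406 with at least 50 cells, and -0.2671 to 0.0963 with 1 pool left out). The causes were not tested.

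Without the replicate block, 7 calls were lost, *Sgk1* (adjusted p = 0.129), *Per1* (0.394) and *Fkbp5* (0.16) in MALP-like cells, *Nr3c1* in OBP-like (0.0887), *Per1* in OB1-like (0.0504) and *Tsc22d3* in OB2-like (0.244) and Ocy-like cells (0.152), and the values of *Nr3c1* in Ocy-like (-0.006) and *Klf9* in monocyte-like cells (0.0122) changed sign. With no filter on low counts, 7185 genes were called between granulocyte-like and macrophage-like cells against 4691, with more genes tested. The pairs of members called over pools went from 10, 1 and 2 in LMP-, MALP- and macrophage-like cells to 0, 0 and 0 both without the 2 farthest pools and without pools 1 and 2, and from 2 to 0 in macrophage-like cells without pool 6. In LMP-like cells the pools farthest from the median of *Tsc22d3*, *Per1* or *Zbtb16* were pools 1 and 2. For pairs named with these genes first, both alternatives are thus the same check, as for *Zbtb16* and *Klf9* in MALP-like cells. The macrophage-like correlations were about as large without pools 1 and 2, at 0.75 for *Nr3c1* and *Tsc22d3* (adjusted p = 0.0731) and 0.70 for *Fkbp5* and *Zbtb16* (adjusted p = 0.0801).

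Low members limit precision: *Zbtb16* and *Hsd11b1* rest on under 200 UMIs in all pools together in most leukocyte classes, T-cell-like cells were measured in 4 pools, and basophil/mast-like cells in 3.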
